A study of Rattus norvegicus with 16 samples.

Results

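The collagen genes are the 44 genes of the 31038 in the deposited tables whose symbol is Col, a type number, the letter a and a chain number. They were sorted by the structure their chains build into 11 fibrillar genes, 6 genes of type IV, 6 of type VI, 9 fibril-associated collagens with interrupted triple helices (FACIT), 4 transmembrane collagens, 3 short chain collagens, 2 multiplexins, 1 anchoring fibril collagen and 2 others, Col26a1 and Col28a1. Their mRNA was followed in 16 RNA-seq libraries of rat sciatic nerve, 2 in each of 8 groups: purified Schwann cells and whole nerve, each from uncrushed nerves and from nerves taken 3, 5 and 7 days after crush. No genotype or genetic change is given for the rats, the label of every sample gives postnatal day 18, which the methods give as the age at surgery, and the uncrushed rats had no sham operation, so that surgery, age and time after crush cannot be told apart. Schwann cells came from nerve dissociated with collagenase and dispase, a step that digests collagen protein and not mRNA, and were immunopanned: dishes with antibodies to CD45 and Thy1 retained immune cells and fibroblasts, and the cells bound by an antibody to O4, a lipid antigen of Schwann cells, were used. Whole nerve was not dissociated. Crushed samples are the segment distal to the crush, each sample pools at least 10 nerves, and nothing says whether the 2 libraries of a group came from separate rats. The p-values therefore measure only the spread between libraries of a group, estimated over all groups of a fit together, and not a known spread between rats.

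Collagens are built from 3 chains wound into a triple helix, and each chain has its own gene. Fibrillar collagens (types I, II, III, V, XI, XXIV and XXVII) assemble into banded fibrils, FACIT collagens sit on the surface of those fibrils, type IV forms the sheet-like network of basement membranes, type VI forms beaded filaments at the cell surface, and multiplexins lie at the junction of basement membrane and fibrils. In a peripheral nerve each Schwann cell unit is wrapped in a basement membrane, and thin fibrils fill the endoneurium around it. Both Schwann cells and the fibroblasts of the nerve make collagen, and the basement membrane tubes persist after an axon degenerates and guide its regrowth.

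Depth was 10555067 to 27562637 expected counts per library. Collagen genes took 1.24% to 1.40% of the counts in uncrushed Schwann cells, 0.363% to 0.525% in Schwann cells after crush and 2.07% to 2.64% in whole nerve. Of the 44 genes, 31 passed the filter on low counts in the fit of the 8 Schwann cell libraries and 40 passed in the fit of whole nerve. Col4a6, Col6a4, Col23a1 and Col25a1 passed in neither. Col25a1 was listed at 0 in all 16 libraries, Col6a4 and Col4a6 did not exceed 0.07 FPKM in any, and Col23a1 did not exceed 0.17 FPKM. FPKM, which scales a gene's fragments to its length and to the depth of the library, is the scale of the levels below unless another is named. Differences of single genes are log2 fold changes of edgeR, with a standard error where given. Their adjusted p is from its quasi-likelihood test over all genes of the fit. Folds of sums, and log2 ratios where so named, are ratios of means and carry no test.

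The purity of the Schwann cells bears on every collagen value, because fibroblasts are rich in the same mRNAs. In uncrushed Schwann cells the 12 fibroblast markers summed to 128 and 134 FPKM, of which Mfap5 made up 95.2 and 116, against 3266 and 3454 in uncrushed nerve. The sum was 21.6 and 41.3 on day 3, 16.9 and 10.1 on day 5, and 14.5 and 12.6 on day 7, and its part in the collagen values was not tested. Most of this difference is that of Mfap5, with 8.55 and 8.37 FPKM at day 3. Of the 10 fibroblast markers tested at day 3, 2 were called lower (25.7% of all genes) and 8 were not called, and their median log2 fold change was -0.03. At day 5, 4 were called lower and 1 higher (25.6% and 29% of all genes) with a median of -1.39, and at day 7, 2 were called lower (21.9%) with a median of -1.19. The fibroblast markers were thus lower by their median at days 5 and 7, as the collagen genes were. None of the 12 was at 0 in every library. In uncrushed Schwann cells the 12 markers stood at a median of 1.39% of their level in whole nerve (0.663% for Dpt to 49.2% for Mfap5), while Col3a1 stood at 42.5%. After crush the median of the 12 markers was 1.42% on day 3, 0.765% on day 5, and 0.930% on day 7. The 8 pericyte and smooth muscle markers stood at a median of 3.79% (2.32% to 329%), with 6 called lower than in whole nerve and 1 higher (35.3% and 29.1% of all genes). The higher one was Pdgfrb, a receptor of pericytes, with 33.7 and 29.1 FPKM in uncrushed and 3.06 and 3.74 in day 3 Schwann cells. The other lists summed in uncrushed Schwann cells to 52.3 and 39.4 FPKM (8 pericyte and smooth muscle markers), 119 and 115 (5 perineurial markers, of which Lypd2 was at 0 in every library), 1.88 and 1.55 (8 endothelial markers) and 6.37 and 4.59 (8 macrophage markers), and the 10 Schwann cell markers summed to 9249 and 9416. After crush the pericyte and smooth muscle sum was 8.93 and 19.2 FPKM on day 3, 14.6 and 12.6 on day 5, and 17.8 and 15.6 on day 7. The perineurial sum was 58 and 59.9 on day 3, 58 and 62.4 on day 5, and 66.9 and 66.1 on day 7. Both sums were thus lower in every crushed library, as many collagen genes were, and their part in the collagen values was not tested. Pdgfrb alone held 33.7 and 29.1 FPKM of the uncrushed pericyte and smooth muscle sum. Of the 7 tested markers of that list 2 were called lower at each day (medians -0.24, -1.57 and -1.40). Of 3 tested perineurial markers 1, 2 and 2 were called lower (medians -0.43, -0.97 and -0.47). None of either list was called higher, and over all genes 25.7%, 25.6% and 21.9% were lower. At day 3, replicate 2 of the Schwann cells held more macrophage markers (3.09 and 14.2 FPKM in replicates 1 and 2), endothelial markers (1.28 and 4.93) and fibroblast markers (21.6 and 41.3) than replicate 1. At day 5 replicate 1 held more macrophage markers than replicate 2 (10.6 and 3.81 FPKM). In bulk RNA fewer cells of a type and less RNA per cell cannot be told apart.

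Some members share their fragments with a second record of the annotation, which was seen as fractional counts that add up to whole numbers, within 0.015, across both records. They did so in each library with a fraction, except 1 of 12 for Col1a2. For Col1a2 the record NEWGENE_621351 held 93.5% of the summed counts, and the share of the record named Col1a2 was erratic, with 249 and 12.7 FPKM in uncrushed Schwann cells and 0.02 and 0 in uncrushed nerve. The record named Col1a2 passed the test in 4 of the comparisons on this split and is not read further, and Col1a2 below means both records together. In the same way LOC108348074 held 76.1% of the counts shared with Col15a1, LOC103693323 held 99.4% with Col23a1, LOC100911572 held 96.9% with Col4a3 and LOC100911886 held 1.3% with Col11a2. Col6a5 and Col6a6, both members, also shared fragments in 7 libraries and are given as uncertain. Whether these records are second copies or parts of 1 gene was not tested.

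Summed collagen mRNA stood lower in Schwann cells after crush, and in whole nerve the change was smaller and depended on the scale. Summed over the 44 genes, TPM (RSEM's length-scaled share of all transcripts) in Schwann cells was 6075 and 5122 without crush, then 1262 and 1253 on day 3, 1597 and 1343 on day 5, and 1633 and 1839 on day 7, a mean lower by 4.45-fold, 3.81-fold and 3.23-fold. With the other records added the sums were 6563 and 5929, then 1777 and 1739.8, 2168 and 1815 and 2462 and 2547, lower by 3.55-fold, 3.14-fold and 2.49-fold. In whole nerve the sum with the other records was 9354 and 10969 without crush, then 8327 and 8552 on day 3, 10413 and 10865 on day 5, and 8749 and 10828 on day 7. The Schwann cell groups after crush lay below both uncrushed libraries without overlap, and on the TPM scale the whole nerve groups at days 5 and 7 overlapped the uncrushed ones. Scaled by TMM, as in the tests, the counts of the 44 genes summed in whole nerve to 28320 and 32196 CPM without crush, then 20196 and 19911 on day 3, 24437 and 24183 on day 5, and 21357 and 25435 on day 7 (16-library fit), lower by 1.51-fold, 1.24-fold and 1.29-fold with no overlap at any day. An exact permutation test of 2 libraries against 2 cannot give a two-sided p below 0.333, so these sums carry no test.

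**Figure D1:**
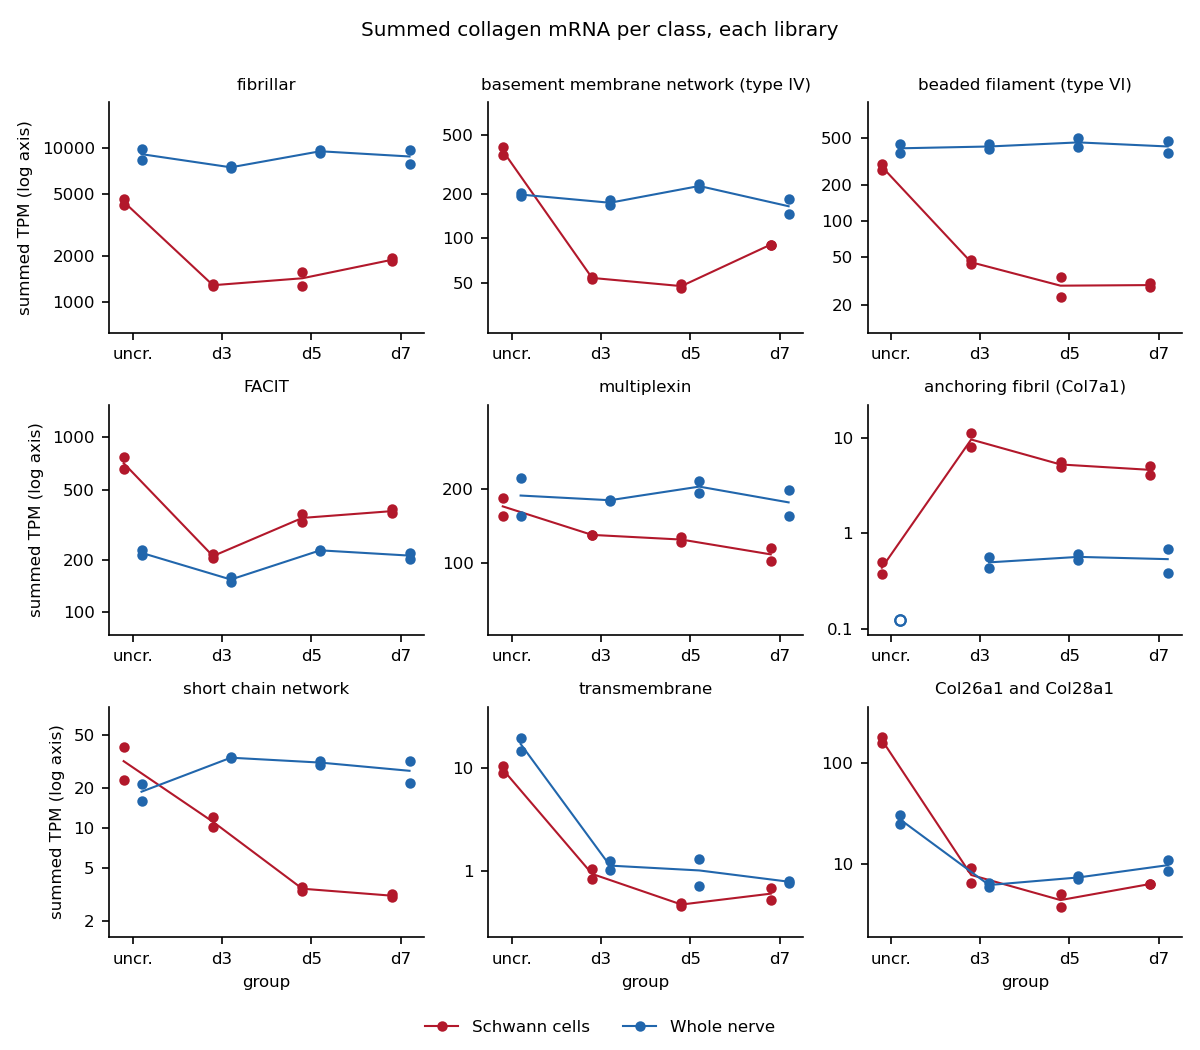
Summed TPM of each collagen class, with the other records of Col1a2, Col4a3, Col11a2, Col15a1 and Col23a1 included, on log axes against the groups uncrushed (uncr.), day 3 (d3), day 5 (d5) and day 7 (d7) of Schwann cells (red) and whole nerve (blue). Points are libraries, lines join the group means and the open circle marks libraries at 0. With these records every class in Schwann cells lay lower after crush than in uncrushed cells except Col7a1, which rose, and without the other record of Col15a1 the multiplexins lay higher. In whole nerve the fibrillar TPM at days 5 and 7 overlapped that of uncrushed nerve.

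Of the 31 genes tested in Schwann cells, 27 changed at day 3 (52.5% of all genes tested did), 4 higher and 23 lower. At day 5 there were 27 (54.6% of all genes), 5 higher and 22 lower, and at day 7 there were 24 (46.9%), 5 higher and 19 lower (25, with 6 higher, when Col1a2 is counted with both records). Over all genes, 26.9%, 29% and 25% were higher and 25.7%, 25.6% and 21.9% lower at the 3 days. The median log2 fold change of the tested collagen genes was -1.37, -2.17 and -1.60, and that of all genes tested was near 0 (0.00, 0.06 and 0.06). Without replicate 2 of day 3 the count at day 3 was 26, with 4 higher and 22 lower. The 3 days share the uncrushed libraries. Higher at all 3 days were 4 genes, Col7a1, Col9a2, Col18a1 and Col20a1, and lower at all 3 days were 17, among them Col3a1, Col4a1, Col4a2, Col6a1, Col6a3, Col11a1, Col14a1 and Col28a1. The share of all genes called at all 3 days was not computed, so these 2 counts are not read as a trait of the family.

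In whole nerve, where 40 were tested, 24 changed at day 3 (45.6% of all genes), 3 higher and 21 lower. There were 22 at day 5 (38.4% of all genes), 6 higher and 16 lower, and 23 at day 7 (31.3%), 7 higher and 16 lower. With Col1a2 counted by both records there were 25 at day 3 (3 higher and 22 lower), the same counts at day 5, and 22 at day 7 (6 higher and 16 lower). The median was -0.48, -0.39 and -0.43, smaller than in Schwann cells, and over all genes 23.1%, 18.9% and 15.4% were higher and 22.5%, 19.5% and 15.9% lower. These splits depend on the scaling. When libraries were scaled to their total counts alone, the median log2 fold change of all genes in whole nerve stood at 0.41, 0.39 and 0.42 in place of 0.00, -0.01 and 0.02, and the collagen calls became 20 at day 3 (35.0% of them higher, against 12.5% above), 15 at day 5 (53.3%, against 27.3%) and 17 at day 7 (58.8%, against 30.4%). In the fit of all 16 libraries they were 21, 18 and 20, with 19.0%, 38.9% and 40.0% higher. A fall in whole nerve of less than about the size of that shift is therefore a fall relative to the other genes of the nerve, and the deposited FPKM may be level or higher. The shares of all genes called higher or lower under total count scaling and in the fit of all 16 libraries are not given here. Whether the collagen shares under those settings lie above or below that background therefore cannot be told. Cell type markers moved in whole nerve as well. The macrophage markers summed to 181 and 161 FPKM without crush, then 685 and 705 on day 3, 432 and 416 on day 5, and 423 and 422 on day 7. The Schwann cell markers summed to 18106 and 21599.8 without crush, then 2548 and 2425 on day 3, 2954 and 3399 on day 5, and 4394 and 4802 on day 7. The fibroblast markers summed to 3266 and 3454 without crush, then 4072 and 3964 on day 3, 4185 and 4067 on day 5, and 4737 and 4652 on day 7. The macrophage and fibroblast sums were thus higher and the Schwann cell sum lower in every crushed library, and their part in the collagen values was not tested. By calls at the 3 days, 8, 8 and 7 of 8 macrophage markers were higher and none lower. Of 12 fibroblast markers 3, 3 and 4 were higher and 4, 3 and 2 lower (medians -0.15, -0.06 and 0.28). Of 10 Schwann cell markers 3, 3 and 3 were higher and 5, 4 and 3 lower (medians -0.43, 0.01 and 0.22). The shares of all genes are given above. The fibroblast and Schwann cell sums thus do not describe every marker of their lists. Summed per class, the values by library are in the plot of summed TPM.

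The fibrillar genes carried most of the family's mRNA. In uncrushed Schwann cells Col3a1 stood first with a mean of 1019 FPKM, followed by Col1a2 (374), Col1a1 (299) and the FACIT gene Col14a1 (178), and none of these neighbours overlapped. At day 3 the order was Col1a2 (336), Col1a1 (181), Col18a1 (61) and Col5a2 (60.1), of which the last pair overlapped, and Col3a1 held rank 8. In whole nerve the first 3 places in each group were held by Col3a1, Col1a1 and Col1a2, with Col3a1 the highest and the other 2 overlapping in uncrushed nerve and at day 7. With Col1a2 counted by both records, 10, 9 and 6 of the 11 fibrillar genes fell in Schwann cells on the 3 days (over all genes, 25.7%, 25.6% and 21.9% were lower). Only Col1a2 rose, at day 7. Their medians were -2.11, -1.11 and -0.65. In whole nerve 9 fell and none rose at day 3, 7 fell and 2 rose at day 5, and 6 fell and 1 rose at day 7 (22.5%, 19.5% and 15.9% of all genes were lower). Those that rose in whole nerve were Col11a1 and Col27a1 at day 5 and Col27a1 at day 7.

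Col3a1 encodes the single chain of type III collagen, which forms thin fibrils with type I in extensible tissue. Its FPKM in Schwann cells was 1023 and 1015 without crush, then 20.3 and 35.8 on day 3, 46.2 and 37.2 on day 5, and 125 and 89.3 on day 7, so that both libraries of each crushed group lay far below the uncrushed pair. The change was -5.12 ± 0.30, -4.63 ± 0.29 and -3.28 ± 0.27 at days 3, 5 and 7 (adjusted p = 7.10e-07, 1.42e-06 and 1.20e-05), or 34.8-fold lower at day 3. In whole nerve Col3a1 was 2369 and 2432 without crush, then 1857 and 1904 on day 3, 2543 and 2417 on day 5, and 2213 and 2169 on day 7, where the groups at day 5 and uncrushed overlapped. The change there was -0.76, -0.36 and -0.54, past the threshold at each day (adjusted p = 2.88e-05, 0.00539 and 5.52e-04), but at day 5 it was lost without day 5 replicate 2 (adjusted p = 0.0526) and turned to 0.045 under total count scaling. As a share of the level in whole nerve, Col3a1 of Schwann cells went from 42.5% in uncrushed nerve to 1.49%, 1.68% and 4.9%.

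Type I collagen, the main fibril of most connective tissue, is made of the chains of Col1a1 and Col1a2. Col1a2 in Schwann cells was 406 and 341 without crush, then 342 and 330.1 on day 3, 424 and 364 on day 5, and 450.0 and 486 on day 7. Its log2 fold change was -0.07, 0.06 and 0.33, of which only that at day 7 passed the test (adjusted p = 0.0274), where Col1a2 was higher. In whole nerve Col1a2 was 1328 and 1648 without crush, then 1391 and 1422 on day 3, 1525 and 1599.9 on day 5, and 1495 and 1988 on day 7, and it was called lower at day 3 alone, at a log2 change of -0.49 ± 0.13 (adjusted p = 0.0126), although the FPKM of the groups overlapped. Col1a1 in Schwann cells ranged from 146 to 301 FPKM and was lower at day 3, -0.67 ± 0.17 (adjusted p = 0.00766), and at day 5, -0.75 ± 0.17 (adjusted p = 0.00418), but not past the threshold at day 7, -0.44 ± 0.17 (adjusted p = 0.0521). In whole nerve it ranged from 1234 to 1763 and was called lower at all 3 days, -0.63, -0.54 and -0.48 (adjusted p = 0.00765, 0.0198 and 0.0383), although the FPKM at days 5 and 7 overlapped that of uncrushed nerve. Each of these calls was lost under total count scaling (adjusted p = 0.266, 0.488 and 0.726). The call at day 3 was also lost without uncrushed or day 3 replicate 2 (adjusted p from 0.0523 to 0.0596), that at day 5 without uncrushed replicate 2 or either day 5 library (adjusted p from 0.0731 to 0.144), and that at day 7 without any 1 of 6 libraries, all but uncrushed replicate 1 and day 7 replicate 2 (adjusted p from 0.0596 to 0.269).

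The type V chains, which start fibrils and set their width, fell less in Schwann cells than Col3a1 did. Col5a1 changed by -1.18, -1.11 and -0.65 (range 33.5 to 82.3 FPKM), Col5a2 by -0.75, -1.02 and -0.74 (46.9 to 114 FPKM) and Col5a3, whose chain is a known product of Schwann cells, by -2.19, -2.17 and -1.68 (13.4 to 70.0 FPKM), and all 9 values passed the test. In a second deposited table, of Cufflinks FPKM, which enters no test, Col5a1 was higher than uncrushed at day 7 (log2 ratio 0.24). In whole nerve Col5a1 ranged from 73 to 98.2 FPKM, Col5a2 from 109 to 146 and Col5a3 from 9.24 to 22.3. Col5a1 and Col5a3 were called lower there at all 3 days. For Col5a1 the FPKM at days 5 and 7 overlapped that of uncrushed nerve. Its calls at those days were lost under total count scaling (-0.059 and -0.119, adjusted p = 0.657 and 0.367). Col5a2 was called lower at day 3, -0.38 ± 0.11 (adjusted p = 0.0145), but not without uncrushed replicate 2, day 3 replicate 1 or day 3 replicate 2 (adjusted p from 0.0624 to 0.111), and it stood at 0.028 under total count scaling.

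Col11a1 and Col11a2, chains of type XI collagen, a minor component inside fibrils, did not move together across tissues. Col11a1 in Schwann cells was 22.3 and 23.1 without crush, then 1.14 and 1.29 on day 3, 0.95 and 0.66 on day 5, and 0.97 and 0.84 on day 7, where no crushed library came near the uncrushed pair. It fell 17.9-fold at day 3, 28.8-fold at day 5 and 26.2-fold at day 7. On the log2 scale the change was -4.16 ± 0.16, -4.85 ± 0.17 and -4.71 ± 0.17 at days 3, 5 and 7 (adjusted p = 7.49e-08, 7.42e-08 and 1.30e-07). Its FPKM in whole nerve was 19.8 and 26.4 without crush, then 36.2 and 38 on day 3, 47.5 and 52.3 on day 5, and 25.4 and 31.2 on day 7, above both uncrushed libraries at days 3 and 5, and it was called higher at day 5, 0.71 ± 0.14 (adjusted p = 0.00254). Col11a2 was lower in level, with 6.55 and 7.4 FPKM without crush, then 1.66 and 1.55 on day 3, 0.89 and 0.89 on day 5, and 0.98 and 1.08 on day 7 in Schwann cells and a change of -2.11, -2.97 and -2.78, all past the threshold. In whole nerve Col11a2 was 0.46 and 0.75 without crush, then 0.19 and 0.16 on day 3, 0.16 and 0.18 on day 5, and 0.25 and 0.44 on day 7. It fell there, at a log2 change of -2.15 at day 3 and -2.24 at day 5, and the call at day 7, -1.22, was lost without any 1 of 6 of the 8 libraries, all but uncrushed replicate 1 and day 7 replicate 2 (adjusted p from 0.0539 to 0.235).

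Col2a1, the fibril of cartilage, fell and came back. It was 17.6 and 16 FPKM without crush, then 1.11 and 1.28 on day 3, 2.42 and 2.48 on day 5, and 15.5 and 12 on day 7 in Schwann cells. Whole nerve had 53.7 and 62.3 without crush, then 1.13 and 0.97 on day 3, 1.98 and 2.07 on day 5, and 11.3 and 13.4 on day 7. Days 3 and 5 lay below the uncrushed libraries in both tissues, and day 7 overlapped none of them but was close to the uncrushed Schwann cells. The change was -3.75 ± 0.16, -2.80 ± 0.15 and -0.33 ± 0.13 at days 3, 5 and 7 (adjusted p = 1.17e-07, 5.35e-07 and 0.071) in Schwann cells and -6.20 ± 0.14, -5.24 ± 0.14 and -2.65 ± 0.12 at days 3, 5 and 7 (adjusted p = 1.46e-09, 3.88e-09 and 1.52e-07) in whole nerve. From day 3 to day 7 it rose by 3.42 ± 0.16 (adjusted p = 2.49e-06) in Schwann cells and by 3.55 ± 0.14 (adjusted p = 3.77e-07) in whole nerve. Both tissues had like levels at days 3, 5 and 7, with Schwann cells at 114%, 121% and 112% of whole nerve, and the difference between them at those days, 0.25, 0.22 and 0.11, did not pass the test.

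Col24a1 and Col27a1 are minor fibrillar genes. Col24a1 in Schwann cells was 0.87 and 0.48 FPKM without crush, then 0.12 and 0.14 on day 3, 0.65 and 0.44 on day 5, and 1.07 and 1.49 on day 7, lower at day 3, -2.27 ± 0.41 (adjusted p = 0.00117), and not called at days 5 and 7. Whole nerve had 0.83 and 1.24 without crush, then 0.26 and 0.27 on day 3, 0.43 and 0.65 on day 5, and 0.79 and 0.75 on day 7, lower at day 3, -2.36 ± 0.32 (adjusted p = 1.65e-04), and at day 5, -1.33 ± 0.30 (adjusted p = 0.00589), the last not without day 5 replicate 1 (adjusted p = 0.0515). Col27a1 in Schwann cells was 18.7 and 15.7 without crush, then 8.6 and 9.0 on day 3, 13.8 and 13.6 on day 5, and 19.2 and 21.6 on day 7, below the uncrushed pair at days 3 and 5 and above it at day 7. It was called lower at day 3, -0.94 ± 0.10 (adjusted p = 5.06e-05), and at day 5, -0.38 ± 0.10 (adjusted p = 0.0106), the second not without uncrushed replicate 1 or day 5 replicate 2 (adjusted p from 0.0527 to 0.0708). In whole nerve Col27a1 was 1.47 and 1.59 without crush, then 1.87 and 1.76 on day 3, 2.68 and 3.09 on day 5, and 3.94 and 4.46 on day 7, higher than uncrushed in every crushed library. It was called higher there at day 5, 0.58 ± 0.14 (adjusted p = 0.00924), though not without uncrushed replicate 1 or day 5 replicate 2 (adjusted p from 0.0583 to 0.067), and at day 7, 1.06 ± 0.14 (adjusted p = 2.83e-04).

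**Figure D2:**
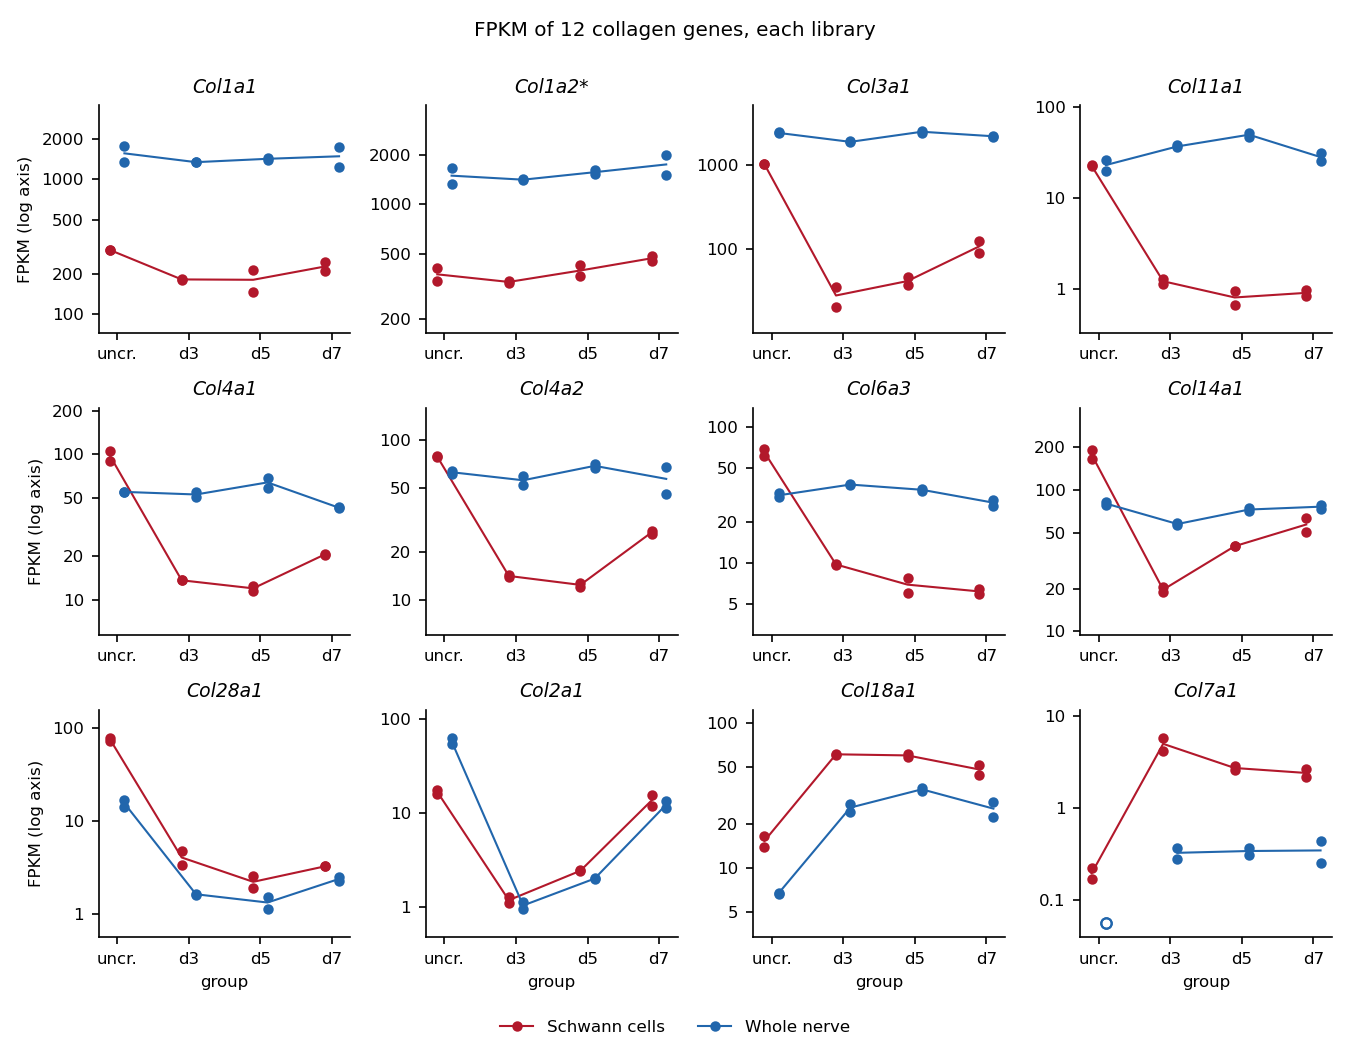
FPKM of 12 collagen genes by library on log axes, against uncrushed (uncr.) and days 3, 5 and 7 (d3, d5, d7), in Schwann cells (red) and whole nerve (blue). Points are libraries, lines join group means, the open circle marks libraries at 0 and the star marks Col1a2 summed with its second record. Col3a1, Col4a1, Col4a2, Col6a3 and Col14a1 dropped in Schwann cells and varied less in whole nerve, and Col11a1 dropped in Schwann cells and was higher in whole nerve at day 5, whereas Col2a1 and Col28a1 dropped in both and Col18a1 rose in both.

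Of the 6 type IV genes, Schwann cells expressed Col4a1 and Col4a2, whose chains form the network found in all basement membranes. These genes lie head to head, and their upstream windows (250 bases before to 50 after the start, RefSeq, GRCr8) overlap by 176 bases on opposite strands, with the starts 77 bases apart. They are shown because both genes moved together and share this stretch. Col4a1 is read from the plus strand of chr16:84885347-84885646 and Col4a2 from the minus strand of chr16:84885471-84885770, each 5′ to 3′, and capitals mark the CCAAT box (CCAAT or ATTGG) and the GC box (GGGCGG or CCGCCC).
Col4a1: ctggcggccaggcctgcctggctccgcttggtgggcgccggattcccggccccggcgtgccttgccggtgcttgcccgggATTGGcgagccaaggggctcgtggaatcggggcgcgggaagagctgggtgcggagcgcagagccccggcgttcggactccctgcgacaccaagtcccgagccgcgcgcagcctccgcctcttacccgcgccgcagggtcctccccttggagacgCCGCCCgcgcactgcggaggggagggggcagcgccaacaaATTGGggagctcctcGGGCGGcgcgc
Col4a2: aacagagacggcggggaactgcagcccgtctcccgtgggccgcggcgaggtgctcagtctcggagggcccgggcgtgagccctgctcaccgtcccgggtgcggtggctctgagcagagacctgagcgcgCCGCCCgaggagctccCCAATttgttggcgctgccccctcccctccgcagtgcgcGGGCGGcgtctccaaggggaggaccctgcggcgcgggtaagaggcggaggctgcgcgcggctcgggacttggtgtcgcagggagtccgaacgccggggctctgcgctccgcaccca
The 78 bases from one start to the other are 78.2% G or C and hold 1 GC box. A GC box occurred in 19 of the 35 collagen genes that matched a window (54.3%) and in 33.1% of all 33469 windows, and a CCAAT box in 11 of 35 (31.4%) and in 37.5% of all. Whether each window lies at the start of its gene was not tested. A TATAAA was found in 4 of 35 windows (14.2% of all), and TGANTCA, the AP-1 motif, in 1 (7.33% of all), that of Col6a1. Both strands were searched, and a match is a description of the letters only.

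Col4a1 in Schwann cells was 105 and 90.2 FPKM without crush, then 13.6 and 13.6 on day 3, 12.5 and 11.5 on day 5, and 20.3 and 20.7 on day 7 and Col4a2 was 79.1 and 77.7 without crush, then 14.4 and 13.9 on day 3, 12.8 and 12.2 on day 5, and 27.1 and 25.9 on day 7. No crushed library reached an uncrushed one. The change of Col4a1 was -2.78 ± 0.11, -3.04 ± 0.11 and -2.29 ± 0.10 at days 3, 5 and 7 (adjusted p = 6.50e-08, 7.39e-08 and 3.61e-07), and that of Col4a2 was -2.41 ± 0.09, -2.67 ± 0.10 and -1.60 ± 0.09 at days 3, 5 and 7 (adjusted p = 7.77e-08, 7.97e-08 and 1.39e-06). From day 3 to day 7 Col4a2 rose by 0.81 ± 0.09 (adjusted p = 3.06e-04). Col4a1 rose by 0.50 ± 0.10 (adjusted p = 0.00687), a call lost without either day 3 library (adjusted p from 0.0565 to 0.058). In whole nerve Col4a1 was 55.1 and 55.3 without crush, then 54.9 and 51.1 on day 3, 69.3 and 59 on day 5, and 42.7 and 43.2 on day 7 and Col4a2 was 61.5 and 64 without crush, then 59.6 and 52.1 on day 3, 71 and 66.4 on day 5, and 46.1 and 67.9 on day 7. Uncrushed Schwann cells thus held a higher FPKM of Col4a1 than whole nerve did, at 177%, and less at day 3, at 25.7%. Both genes were called lower in whole nerve at days 3 and 7, Col4a1 by -0.47 and -0.77 and Col4a2 by -0.58 and -0.55. The calls of Col4a2 were lost without day 3 replicate 2 (adjusted p = 0.0962) and, at day 7, without uncrushed replicate 2 or day 7 replicate 1 (adjusted p from 0.0705 to 0.121), and at day 3 neither gene passed under total count scaling (adjusted p = 0.623 and 0.375). Under that scaling the call of Col4a2 at day 7 was lost too (adjusted p = 0.476).

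The other type IV genes, whose chains build networks restricted to certain basement membranes, were seen in whole nerve and hardly in Schwann cells. In whole nerve Col4a5 ranged from 1.23 to 2.44 FPKM, Col4a4 from 0.40 to 1.46 and Col4a3 from 0.03 to 0.20, while Col4a6 did not exceed 0.07. Schwann cells had at most 0.04 FPKM of Col4a5, and the records named Col4a3, Col4a4 and Col4a6 were listed at 0 in all 8 libraries. With its other record Col4a3 ranged from 0 to 0.10 FPKM in Schwann cells, at most 6 counts in a library. In whole nerve the sum was 3.51 and 5.74 FPKM without crush, then 2.29 and 2.83 on day 3, 2.61 and 2.49 on day 5, and 3.54 and 3.83 on day 7 and lower at all 3 days, at a log2 change of -1.25, -1.25 and -0.72 (adjusted p = 8.91e-04, 0.00127 and 0.027). Col4a5 was called lower in whole nerve at day 3, -0.77 ± 0.19 (adjusted p = 0.0085), but not under total count scaling or in the 16-library fit (adjusted p = 0.147 and 0.0687). It was at least 65.7-fold lower in uncrushed Schwann cells than in whole nerve, taking 3 counts per library as the floor.

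The main type VI genes fell far in Schwann cells and little or not in whole nerve. Col6a1 in Schwann cells was 36.9 and 33.4 FPKM without crush, then 6.28 and 7.91 on day 3, 5.22 and 3.48 on day 5, and 5.48 and 6.18 on day 7, and Col6a3, which encodes the largest chain, was 68.8 and 60.6 without crush, then 9.65 and 9.87 on day 3, 7.81 and 6.08 on day 5, and 5.95 and 6.44 on day 7. Every crushed library lay below both uncrushed ones for both genes, and the level was lower still at days 5 and 7. The change of Col6a1 was -2.25 ± 0.19, -3.03 ± 0.20 and -2.63 ± 0.20 at days 3, 5 and 7 (adjusted p = 8.45e-06, 1.97e-06 and 6.33e-06), that of Col6a3 was -2.69 ± 0.14, -3.25 ± 0.14 and -3.44 ± 0.14 at days 3, 5 and 7 (adjusted p = 3.33e-07, 1.89e-07 and 2.59e-07), and Col6a2 changed by -2.07, -2.99 and -3.21 (2.48 to 28.2 FPKM), each past the threshold. Col6a3 continued to fall from day 3 to day 7, -0.75 ± 0.13 (adjusted p = 0.00382).

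In whole nerve Col6a1 was 107 and 132 FPKM without crush, then 116 and 136 on day 3, 121 and 143 on day 5, and 122 and 138 on day 7 and Col6a3 was 30.4 and 32.4 without crush, then 37.5 and 37.7 on day 3, 33.7 and 35.2 on day 5, and 26.2 and 29.2 on day 7. The groups overlapped for Col6a1, which was not called at any day, with -0.33, -0.26 and -0.28, nor was Col6a2 (84.3 to 118 FPKM). Col6a3 was called lower at day 5, -0.25 ± 0.09 (adjusted p = 0.0449), and at day 7, -0.57 ± 0.09 (adjusted p = 7.10e-04). The call at day 5 was lost without any library except day 7 replicate 2 (adjusted p from 0.0542 to 0.229), and under total count scaling the value was 0.16. Under that scaling the call at day 7 was lost too (adjusted p = 0.168). Col6a5 and Col6a6, which share fragments, were genes of whole nerve. Col6a5 was 3.26 and 5.03 without crush, then 2.69 and 3.42 on day 3, 2.45 and 3.59 on day 5, and 3.95 and 3.23 on day 7 there and 0.15 and 0.04 without crush, then 0.03 and 0.10 on day 3, 0.11 and 0.03 on day 5, and 0.01 and 0.01 on day 7 in Schwann cells. Col6a6 ranged from 8.96 to 11.4 in whole nerve and from 0.02 to 0.55 in Schwann cells. In whole nerve Col6a6 was called lower at all 3 days, -0.66, -0.52 and -0.47 (adjusted p = 5.93e-04, 0.0035 and 0.00775), the last not without day 7 replicate 1 (adjusted p = 0.0774), and none of the 3 under total count scaling (adjusted p = 0.0776, 0.395 and 0.685). Col6a5 was called lower there at day 3, -0.84, and at day 5, -0.85 (adjusted p = 0.0128 and 0.0154), not without uncrushed replicate 2 or replicate 1 of that day (adjusted p from 0.0978 to 0.129). Neither of these calls passed under total count scaling (adjusted p = 0.132 and 0.124). Col6a5 in Schwann cells at day 7 was at least 4.31-fold lower than in uncrushed cells (adjusted p = 0.030), with both day 7 libraries at the floor, and lost the call without uncrushed replicate 1 or either day 7 library (adjusted p from 0.0979 to 0.212). Col6a6 was called lower at days 5 and 7 in Schwann cells (-2.32 and -2.55), not without uncrushed replicate 1 or day 5 replicate 2 at day 5 (adjusted p from 0.188 to 0.513), nor without uncrushed replicate 1 or either day 7 library at day 7 (adjusted p from 0.0688 to 0.426).

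FACIT genes moved in both directions. Of the 6 tested in Schwann cells, 2 rose and 3 fell at day 3 (26.9% of all genes were higher and 25.7% lower), and 3 rose and 2 fell at days 5 and 7 (29% and 25% higher, 25.6% and 21.9% lower). Col14a1, whose product coats type I fibrils, was the most abundant of them in uncrushed Schwann cells, with 191 and 165 FPKM without crush, then 20.6 and 18.9 on day 3, 40.1 and 40.0 on day 5, and 63.5 and 50.4 on day 7. It fell and came part of the way back, at a log2 change of -3.12 ± 0.13, -2.17 ± 0.13 and -1.68 ± 0.12 at days 3, 5 and 7 (adjusted p = 1.17e-07, 9.43e-07 and 6.05e-06), and rose by 1.44 ± 0.12 (adjusted p = 7.10e-05) from day 3 to day 7. In whole nerve Col14a1 was 82.4 and 77.8 without crush, then 56.1 and 58.8 on day 3, 74.7 and 70.8 on day 5, and 73.6 and 78.7 on day 7, below both uncrushed libraries at days 3 and 5 and overlapping them at day 7, and was called lower, at a log2 change of -0.89, -0.55 and -0.48. Under total count scaling the calls at days 5 and 7 were lost (adjusted p = 0.184 and 0.499). Col16a1, a collagen found at cell surfaces and in fibrils, ranged from 9.81 to 28.2 FPKM and fell, at a log2 change of -1.37, -1.21 and -0.62 in Schwann cells, all called. In whole nerve it ranged from 4.58 to 8.82 and was called only at day 3, -0.49 ± 0.12 (adjusted p = 0.00656), not without uncrushed replicate 2 or day 3 replicate 1 (adjusted p from 0.0512 to 0.0628).

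The type IX genes, known from cartilage fibrils, split by chain. Col9a2 in Schwann cells was 1.03 and 1.26 FPKM without crush, then 3.19 and 3.44 on day 3, 3.17 and 2.6 on day 5, and 2.24 and 3.37 on day 7 and in whole nerve 0.95 and 0.72 without crush, then 0.53 and 0.30 on day 3, 1.11 and 1.29 on day 5, and 1.35 and 1.32 on day 7. In Schwann cells all crushed libraries lay above the uncrushed pair, and in whole nerve those of day 3 lay below it. Col9a2 rose in Schwann cells by 1.60 ± 0.26, 1.34 ± 0.26 and 1.25 ± 0.26 at days 3, 5 and 7 (adjusted p = 6.03e-04, 0.00186 and 0.00357). In whole nerve it was called lower at day 3, -1.45 ± 0.36 (adjusted p = 0.0074), but not without uncrushed replicate 1 or day 3 replicate 2 (adjusted p from 0.0644 to 0.0659). Col9a1 was a gene of whole nerve, 8.33 and 14.6 FPKM without crush, then 2.79 and 4.28 on day 3, 7.5 and 6.6 on day 5, and 3.41 and 2.25 on day 7, where it was lower at all 3 days, at a log2 change of -2.10, -1.10 and -2.42, though not at day 5 without uncrushed replicate 2 or day 5 replicate 2 (adjusted p from 0.0747 to 0.0942). It was 0.02 and 0.07 without crush, then 0 and 0.02 on day 3, 0 and 0 on day 5, and 0.02 and 0.07 on day 7 in Schwann cells, at the floor in every group, and at least 228-fold lower there than in whole nerve among uncrushed libraries. Col9a3 ranged from 39.8 to 91.1 in Schwann cells, lower at day 3 only, -0.93 ± 0.12 (adjusted p = 1.56e-04), and from 12 to 29.2 in whole nerve. There it was lower, at a log2 change of -1.57, -0.42 and -0.38, but at day 7 not without uncrushed replicate 2 or day 7 replicate 2 (adjusted p from 0.0576 to 0.0679), and at 0.023 under total count scaling.

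Col20a1 rose in Schwann cells by 1.12 ± 0.16, 1.07 ± 0.16 and 0.88 ± 0.16 at days 3, 5 and 7 (adjusted p = 3.04e-04, 4.44e-04 and 0.0019) within a range of 1.47 to 3.45 FPKM. In whole nerve (0.35 to 1.54 FPKM) it rose at day 5, 1.06 ± 0.25 (adjusted p = 0.00787), not without uncrushed replicate 1 (adjusted p = 0.0643), and at day 7, 1.32 ± 0.25 (adjusted p = 0.00276). Col12a1, which binds type I fibrils under tension, ranged from 25.1 to 50.6 in Schwann cells and was higher at day 5, 0.78 ± 0.12 (adjusted p = 4.62e-04), and at day 7, 0.43 ± 0.12 (adjusted p = 0.0148), the latter not without uncrushed replicate 2 or day 7 replicate 2 (adjusted p from 0.0716 to 0.0965). In whole nerve (9.7 to 21 FPKM) it was not called. Col22a1 (0.53 to 2.59 FPKM) and Col19a1 (0.07 to 0.27) were seen in whole nerve and reached at most 0.01 and 0.03 FPKM in Schwann cells. Col22a1 was called higher in whole nerve at day 7, 1.06 ± 0.32 (adjusted p = 0.0292), but not without uncrushed replicate 1 or either day 7 library (adjusted p from 0.0692 to 0.115).

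The multiplexins moved in opposite directions. Col18a1, the basement membrane collagen whose end fragment is endostatin, was 16.7 and 14.1 FPKM without crush, then 60.4 and 61.7 on day 3, 61.8 and 58.1 on day 5, and 44.1 and 51.9 on day 7 in Schwann cells. Whole nerve had 6.66 and 6.76 without crush, then 27.8 and 24.5 on day 3, 34.1 and 35.8 on day 5, and 22.6 and 28.8 on day 7. All crushed libraries lay above the uncrushed ones in both tissues. The rise was 2.04 ± 0.12, 1.94 ± 0.12 and 1.60 ± 0.12 at days 3, 5 and 7 (adjusted p = 6.93e-07, 1.20e-06 and 5.62e-06) in Schwann cells, or 4.12-fold at day 3, and 1.55 ± 0.12, 1.98 ± 0.12 and 1.53 ± 0.12 at days 3, 5 and 7 (adjusted p = 3.78e-06, 9.11e-07 and 8.22e-06) in whole nerve. The lower level at day 7 than at day 3 in Schwann cells, -0.44 ± 0.11 (adjusted p = 0.0213), was not called without either day 3 library or day 7 replicate 1 (adjusted p from 0.0863 to 0.164). Col15a1, which lies between basement membrane and fibrils, was 11.3 and 21.4 FPKM without crush, then 1.15 and 0.68 on day 3, 1.76 and 1.39 on day 5, and 2.94 and 2.92 on day 7 in Schwann cells. Whole nerve had 25.5 and 31.2 without crush, then 23.8 and 16.4 on day 3, 19.8 and 20.3 on day 5, and 15.9 and 15.6 on day 7. With its other record it was 64.5 and 57 without crush, then 6.31 and 5.94 on day 3, 4.17 and 4.54 on day 5, and 9.01 and 7.34 on day 7 in Schwann cells, and fell, at a log2 change of -3.27, -3.82 and -2.92 (by -4.16, -3.41 and -2.53 without that record), all past the threshold. In whole nerve the sum was 92.6 and 133 FPKM without crush, then 89.9 and 93.2 on day 3, 85.5 and 93.5 on day 5, and 80.2 and 97.4 on day 7, lower, at a log2 change of -0.71, -0.74 and -0.76, also past the threshold. The direction of the summed multiplexins in Schwann cells depends on the other record of Col15a1. The members alone had a mean of 70.8 TPM without crush, then 120.1 on day 3, 119 on day 5, and 98.3 on day 7. With the other record it was 170.2, then 130.2, 125 and 108.

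Col7a1, the collagen of the anchoring fibrils that tie skin to its basement membrane, rose most of the 31 tested collagen genes in Schwann cells. It was 0.22 and 0.17 FPKM without crush, then 4.12 and 5.75 on day 3, 2.54 and 2.86 on day 5, and 2.15 and 2.62 on day 7, a rise of 4.72 ± 0.24, 3.77 ± 0.25 and 3.56 ± 0.25 at days 3, 5 and 7 (adjusted p = 3.33e-07, 1.82e-06 and 4.20e-06). The level stayed low beside that of Col18a1. Whole nerve had 0 and 0 without crush, then 0.37 and 0.28 on day 3, 0.37 and 0.31 on day 5, and 0.25 and 0.44 on day 7, listed at 0 in both uncrushed libraries, which makes it at least 9.2-fold, 9.75-fold and 9.79-fold higher after crush (adjusted p = 1.14e-04, 1.44e-04 and 1.86e-04). From day 3 to day 7 it fell in Schwann cells, -1.15 ± 0.18 (adjusted p = 0.00189).

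Short chain collagens form hexagonal lattices. Col8a2 in Schwann cells was 16.7 and 9.1 FPKM without crush, then 4.41 and 5.37 on day 3, 1.28 and 1.27 on day 5, and 1.15 and 0.88 on day 7, with no overlap between crushed and uncrushed libraries, and it fell, at a log2 change of -1.33 ± 0.24, -3.35 ± 0.27 and -3.68 ± 0.28 at days 3, 5 and 7 (adjusted p = 0.00119, 6.89e-06 and 7.24e-06). Whole nerve had 4.95 and 7.25 without crush, then 2.8 and 3.2 on day 3, 3.42 and 3.2 on day 5, and 3.25 and 3.87 on day 7, lower at all 3 days, at a log2 change of -1.42, -1.28 and -1.18. Col8a1 was 4.84 and 5.9 without crush, then 18.8 and 18.4 on day 3, 14.9 and 15.4 on day 5, and 11 and 15.9 on day 7 in whole nerve, above the uncrushed pair in every crushed library, and rose by 1.39 ± 0.17, 1.10 ± 0.17 and 0.92 ± 0.17 at days 3, 5 and 7 (adjusted p = 7.51e-05, 5.48e-04 and 0.00214). In Schwann cells it was 0.06 and 0.07 without crush, then 0.22 and 0.27 on day 3, 0.16 and 0.05 on day 5, and 0.05 and 0.09 on day 7, too low to be tested. Col10a1, known from the growth plate, ranged from 0.37 to 1.25 FPKM in Schwann cells and was lower, at a log2 change of -0.96, -1.52 and -1.29, the first of these not without uncrushed replicate 2 or either day 3 library (adjusted p from 0.0585 to 0.0675). Its range in whole nerve was 0.23 to 0.48, and it was not called.

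The transmembrane collagens stayed at or below 0.52 FPKM under their own symbols. Col17a1, a component of hemidesmosomes, was 0.22 and 0.52 FPKM without crush, then 0.07 and 0.11 on day 3, 0.06 and 0.11 on day 5, and 0.07 and 0.17 on day 7 in Schwann cells. Whole nerve had 0.21 and 0.11 without crush, then 0.21 and 0.29 on day 3, 0.12 and 0.10 on day 5, and 0.15 and 0.14 on day 7. It was called lower in Schwann cells at days 3 and 5 (-1.98 and -2.21), but not without uncrushed replicate 2 or either day 3 library at day 3 (adjusted p from 0.0554 to 0.203), nor without uncrushed replicate 2 or day 5 replicate 1 at day 5 (adjusted p from 0.0971 to 0.143). Col13a1, found at the neuromuscular junction, was 0 and 0 without crush, then 0.07 and 0.08 on day 3, 0 and 0.03 on day 5, and 0 and 0.03 on day 7 in Schwann cells. Whole nerve had 0.20 and 0.07 without crush, then 0.10 and 0.26 on day 3, 0.43 and 0.08 on day 5, and 0.10 and 0.20 on day 7, which is too low to order the groups. The record that shares fragments with Col23a1, LOC103693323, fell in both tissues. Both records together were 4.35 and 3.54 FPKM without crush, then 0.30 and 0.35 on day 3, 0.18 and 0.11 on day 5, and 0.20 and 0.15 on day 7 in Schwann cells. Whole nerve had 8.93 and 12 without crush, then 0.35 and 0.25 on day 3, 0.27 and 0.24 on day 5, and 0.28 and 0.15 on day 7. The change was -3.74 ± 0.30, -5.23 ± 0.35 and -4.64 ± 0.34 at days 3, 5 and 7 (adjusted p = 6.00e-06, 2.05e-06 and 5.35e-06) in Schwann cells and -5.57, -5.81 and -6.03 in whole nerve, with no overlap between crushed and uncrushed libraries.

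Col28a1, a collagen with von Willebrand factor A domains that is known from peripheral nerve, fell in both tissues. It was 78.4 and 72.2 FPKM without crush, then 3.35 and 4.72 on day 3, 1.88 and 2.53 on day 5, and 3.23 and 3.24 on day 7 in Schwann cells. Whole nerve had 14.1 and 16.7 without crush, then 1.64 and 1.6 on day 3, 1.52 and 1.12 on day 5, and 2.26 and 2.48 on day 7. Uncrushed Schwann cells held a higher FPKM than whole nerve, and every crushed library lay below every uncrushed one. The change was -4.15 ± 0.18, -5.12 ± 0.19 and -4.58 ± 0.19 at days 3, 5 and 7 (adjusted p = 1.26e-07, 9.19e-08 and 2.22e-07) in Schwann cells and -3.66 ± 0.17, -3.95 ± 0.17 and -3.11 ± 0.16 at days 3, 5 and 7 (adjusted p = 7.07e-08, 7.60e-08 and 4.47e-07) in whole nerve. Col26a1 ranged from 1.7 to 4.54 FPKM in whole nerve and from 0 to 0.31 in Schwann cells.

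**Figure D3:**
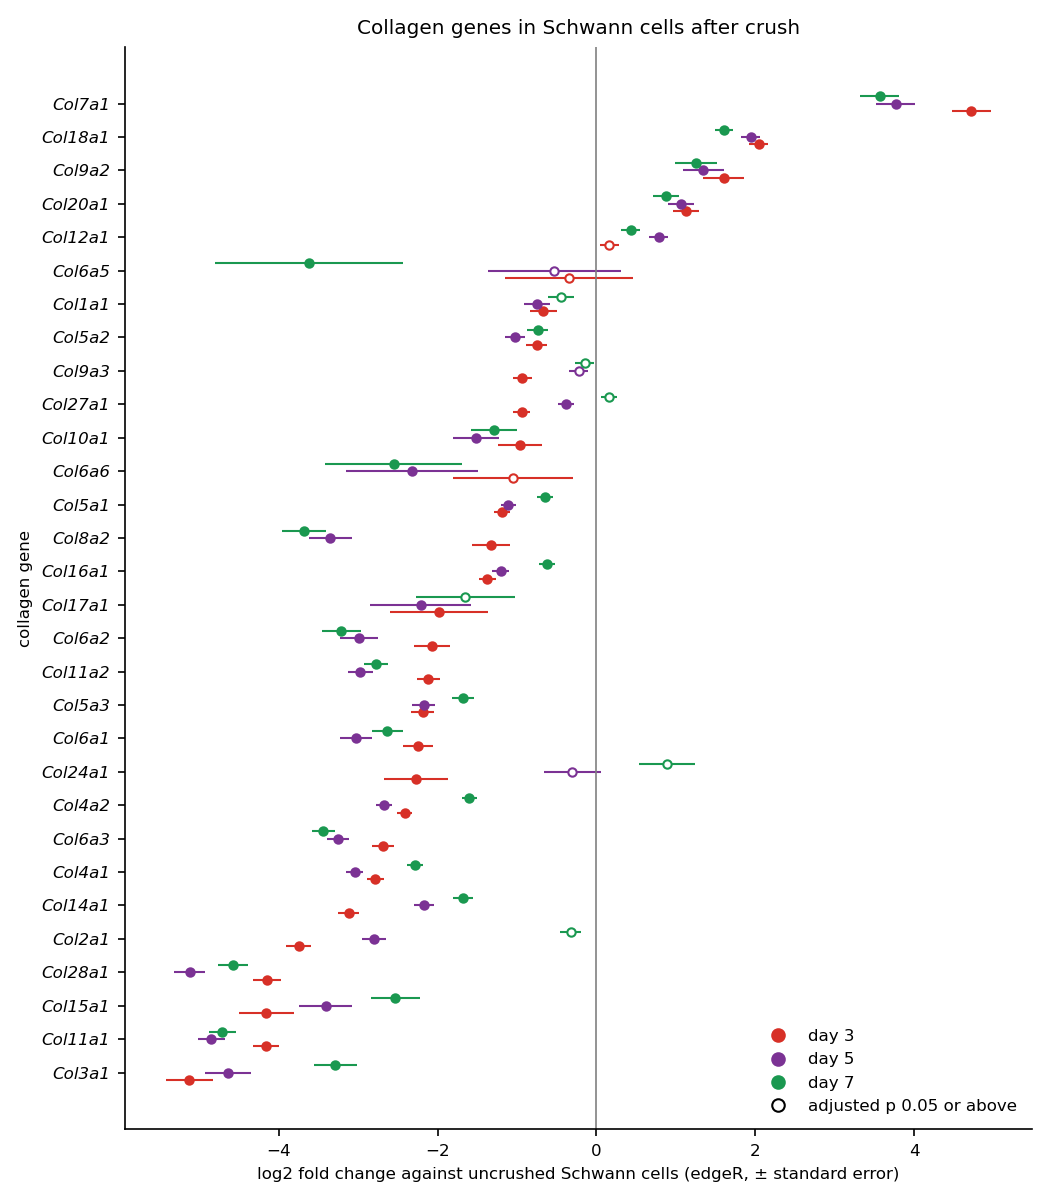
Log2 fold change of 30 collagen genes in Schwann cells at day 3 (red), day 5 (purple) and day 7 (green) against uncrushed Schwann cells, with the standard error as bars. Filled points have an adjusted p below 0.05, and the record named Col1a2 is left out. Points of Col15a1 are of the record of that name, which holds the smaller share of its fragments. Most points lie left of 0, at day 3 farthest for Col3a1, Col11a1, Col15a1 and Col28a1, and Col7a1, Col9a2, Col18a1 and Col20a1 lie right of 0 at all 3 days.

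Purified cells were also compared with the nerve they came from. In uncrushed samples 35 of the 40 tested collagen genes differed between Schwann cells and whole nerve (64.4% of all genes did, 29.1% higher and 35.3% lower), 16 higher, the record named Col1a2 among them, and 19 lower in Schwann cells. Higher in Schwann cells were Col27a1 (3.32 ± 0.12), Col11a2 (3.29 ± 0.24), Col16a1 (2.07 ± 0.11), Col28a1 (1.98 ± 0.16) and Col5a3 (1.39 ± 0.14), and also Col4a1 (0.51), Col6a3 (0.85) and Col14a1 (0.84). Lower were Col1a1 (-2.69 ± 0.19), Col1a2 (-2.39 ± 0.14 with its other record), Col6a1 (-2.07 ± 0.17) and Col3a1 (-1.55 ± 0.21). At day 3 there were 35 (57.3% of all genes, 24.5% higher and 32.8% lower), 12 higher and 23 lower. At day 5 there were 35 (51.7% of all genes, 23.2% higher and 28.4% lower), 11 higher, again with the record named Col1a2, and 24 lower, and at day 7 there were 33 (51%, with 22.4% higher and 28.7% lower), 10 higher and 23 lower. With Col1a2 counted by both records the higher and lower genes were 15 and 20 without crush, then 12 and 24 on day 3, 10 and 25 on day 5, then 10 and 24 on day 7. Among those that passed from higher to lower, Col4a1 stood at -1.91, Col6a3 at -1.81 and Col14a1 at -1.49 at day 3 (adjusted p = 1.58e-09, 1.13e-08 and 4.10e-08).

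Whether the change after crush differed between tissues was tested as an interaction in the fit of all 16 libraries. It differed for 20 collagen genes at day 3 (26% of all genes, 13.7% with a lower value in Schwann cells), 16 of them with the lower value in Schwann cells, for 20 at day 5 (27.5%, with 14.9% lower), 19 of them lower in Schwann cells, and for 21 at day 7 (26%, with 14.4% lower), 19 of them lower, the record named Col1a2 among them. The difference at day 3 was -4.54 ± 0.22 for Col11a1, -4.46 ± 0.31 for Col3a1, -2.67 ± 0.16 for Col6a3, -2.42 ± 0.14 for Col4a1 and -2.33 ± 0.15 for Col14a1 (adjusted p = 1.34e-08, 1.79e-07, 7.67e-08, 5.13e-08 and 1.21e-07). For Col2a1 the sign was opposite, 2.35 ± 0.21, since it fell further in whole nerve, and for Col9a2 it was 2.95 ± 0.44 (adjusted p = 2.17e-06 and 1.78e-04). Called in opposite directions by the separate fits of the tissues were Col9a2 at day 3, and Col11a1 and Col27a1 at day 5. In the table of Cufflinks FPKM, Col27a1 of Schwann cells was higher than uncrushed at day 5 (log2 ratio 0.55). No difference was called for Col18a1, 0.39 ± 0.18 at day 3 (adjusted p = 0.127), or for Col28a1, -0.59 ± 0.24 (adjusted p = 0.0822), though for Col28a1 it was at days 5 and 7 (-1.29 and -1.58).

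**Figure D4:**
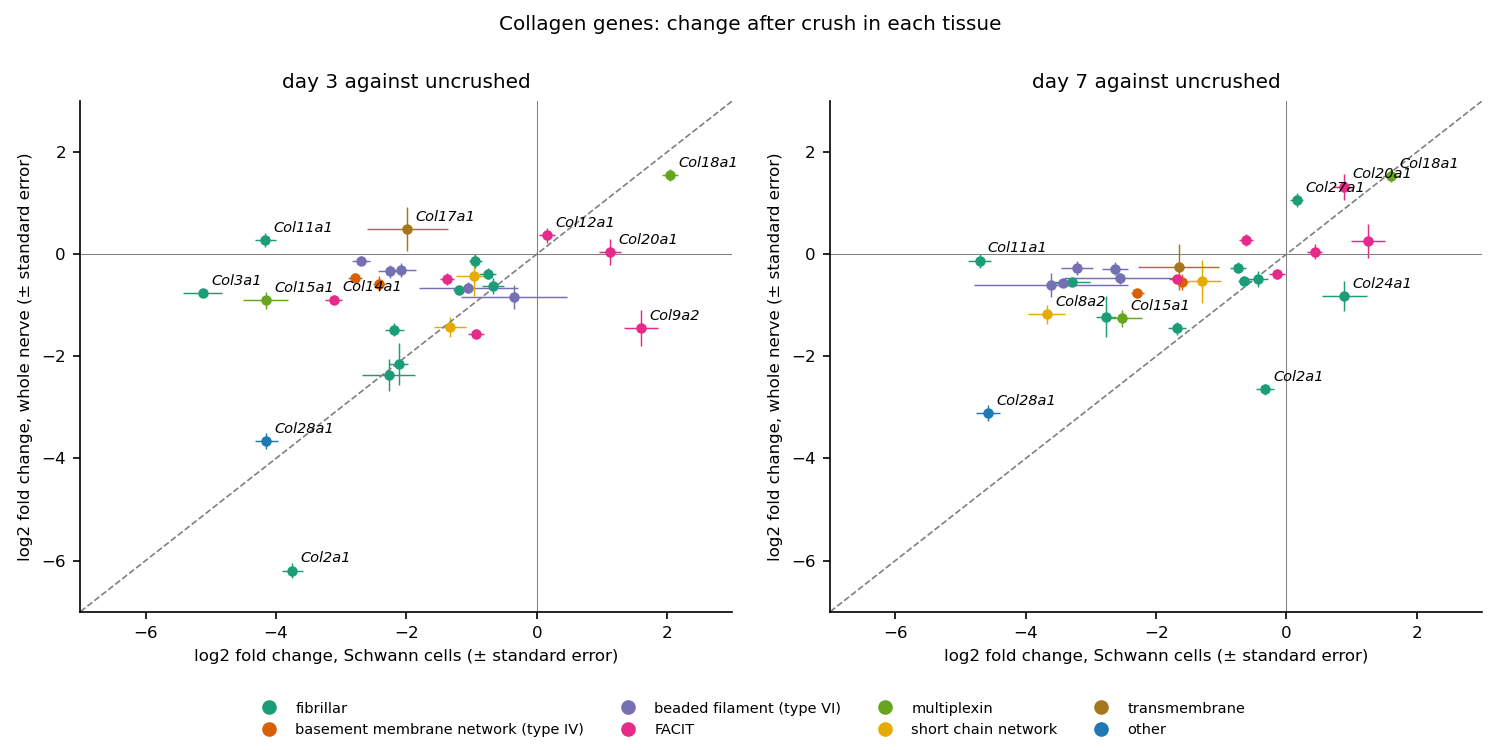
Log2 fold change against uncrushed in whole nerve (y axis) and Schwann cells (x axis) at day 3 (left) and day 7 (right), with standard errors as bars and classes as colors. Each point is a collagen gene tested in both tissues, the dashed line marks equal change, and Col7a1 and the record named Col1a2 are left out, the first because both uncrushed nerve libraries were at 0 and the second because its fragments are split. Col3a1, Col11a1 and Col15a1 lie far left of the line at day 3, while Col28a1 and Col18a1 lie near it.

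Between day 3 and day 7 part of the family came back in Schwann cells. The test called 18 of 31 collagen genes (21% of all genes, 10.2% higher and 10.7% lower), 12 higher and 6 lower at day 7, but 12, with 9 higher and 3 lower, without day 3 replicate 2. Of these 12, 6 were fibrillar, led by Col2a1, Col24a1 (3.16) and Col3a1 (1.84), and both Col4a1 and Col4a2 were also among them. With Col1a2 counted by both records there were 20, 13 higher and 7 lower, and Col1a2 was among the higher, 0.41 ± 0.11 (adjusted p = 0.0238). Type VI genes did not follow: Col6a2 (-1.14) and Col6a3 (-0.75) were lower, the first not without day 3 replicate 2 or day 7 replicate 2 (adjusted p from 0.0575 to 0.0576). Also called were Col15a1 (1.63), not without day 3 replicate 2 (adjusted p = 0.0863) nor with its other record (0.35, adjusted p = 0.0623), Col11a2 (-0.66), not without either day 3 library or day 7 replicate 1 (adjusted p from 0.0612 to 0.116), and Col5a3 (0.50), not without either day 3 library, either day 5 library or day 7 replicate 1 (adjusted p from 0.0508 to 0.233). In whole nerve 12 of 40 were called (21.2% of all genes, 9.85% higher and 11.4% lower), 10 higher and 2 lower, 6 of the higher ones FACIT genes. Of these 12 calls 6 were lost without 1 library. Those of Col9a2 and Col24a1 were lost without day 3 replicate 2 (adjusted p = 0.0621 and 0.052) and that of Col14a1 without day 3 replicate 1 (adjusted p = 0.061). Those of Col22a1 and Col28a1 were lost without any 1 of the 4 libraries of days 3 and 7 (adjusted p from 0.0832 to 0.16 for Col22a1 and from 0.0896 to 0.184 for Col28a1). The lower call of Col4a1 was lost without any 1 of 6 libraries, all but those of day 5 (adjusted p from 0.0525 to 0.267).

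Ratios between chains within a library do not depend on its scaling, since both genes are divided by the same total. The ratio of Col3a1 to Col1a1 in Schwann cells was 3.4 and 3.42 without crush, then 0.111 and 0.20 on day 3, 0.216 and 0.254 on day 5, and 0.60 and 0.368 on day 7. In whole nerve it stayed between 1.25 and 1.83 in all 8 libraries. The ratio of Col1a1 to Col1a2 with its other record, chains that assemble 2 to 1, was 0.741 and 0.871 in uncrushed Schwann cells and 0.401 to 0.542 after crush, against 0.825 to 1.07 in whole nerve. Col4a1 to Col4a2 went from 1.32 and 1.16 in uncrushed Schwann cells to 0.749 and 0.796 at day 7. Col6a3 to Col6a1 was 1.04 to 1.86 in Schwann cells and 0.211 to 0.324 in whole nerve, and Col11a1 to Col11a2 went from 3.41 and 3.12 in uncrushed Schwann cells to 0.687 to 1.07 after crush, against 35.2 to 297 in whole nerve.

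**Figure D5:**
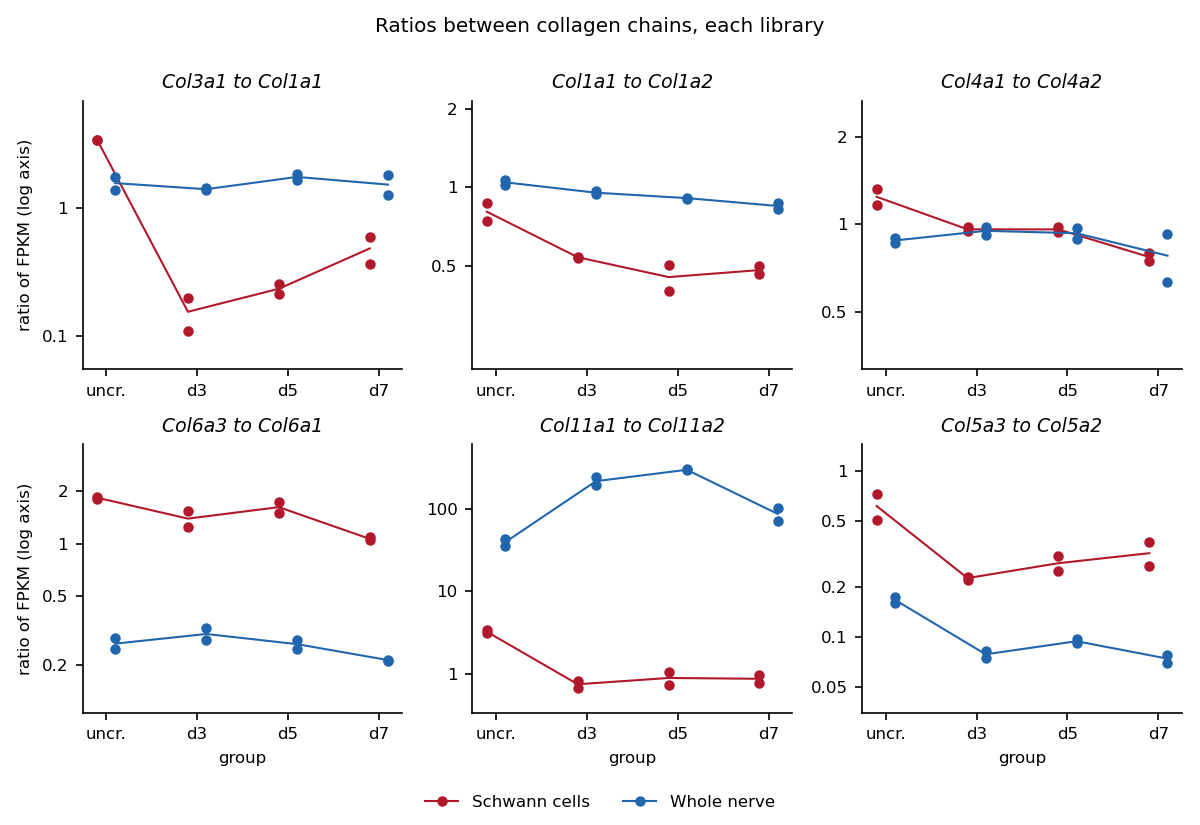
Ratio of the FPKM of 2 collagen chains in each library, on log axes, against uncrushed (uncr.) and days 3, 5 and 7 (d3, d5, d7) in Schwann cells (red) and whole nerve (blue), with lines through the group means and Col1a2 summed with its second record. The ratio of Col3a1 to Col1a1 dropped from 3.40 and 3.42 to 0.111 and 0.200 in Schwann cells, and in whole nerve it stayed above 1.25.

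The genes that process collagen moved in both directions in Schwann cells. Of 18 tested genes for modification and folding in the cell, 10 rose and 2 fell in Schwann cells at day 3, of 14 for propeptide removal and fibril assembly 4 rose and 7 fell, and of 7 receptors 1 rose and 4 fell. Over all genes 26.9% were higher and 25.7% lower. The largest rises in modification were of P3h2, a prolyl 3-hydroxylase, with 0.68 and 0.50 FPKM in uncrushed and 3.52 and 4.68 in day 3 cells (2.82 ± 0.30 (adjusted p = 3.64e-05)), and of P4ha3, a prolyl 4-hydroxylase subunit (1.73 ± 0.31 (adjusted p = 0.00123)). The 2 that fell were Plod2, a lysyl hydroxylase (-1.60 ± 0.13 (adjusted p = 7.73e-06)), and P4ha1 (-0.92 ± 0.10 (adjusted p = 3.99e-05)), of which P4ha1 was by far the higher, with 89.9 and 88.1 FPKM in uncrushed and 43.7 and 43.4 in day 3 cells. In whole nerve 9 of these 18 rose and 3 fell at day 3 (23.1% and 22.5% of all genes), and Plod2 rose there (0.58 ± 0.10 (adjusted p = 0.00115)).

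Among the genes for assembly, Loxl1, a lysyl oxidase that crosslinks the matrix, had 0.88 and 0.67 FPKM in uncrushed and 15.1 and 12.8 in day 3 cells and rose by 4.21 ± 0.20 (adjusted p = 1.95e-07). Adamts14, which removes the amino propeptide of fibrillar procollagen, had 0.04 and 0.02 FPKM in uncrushed and 1.41 and 1.43 in day 3 cells, at least 32.2-fold more (adjusted p = 3.16e-06). Adamts3, of the same family, fell, at a log2 change of -2.70 ± 0.18 (adjusted p = 1.88e-06), and Tll1, a carboxyl propeptidase, at -2.64 ± 0.16 (adjusted p = 9.24e-07) from 24 and 17.8 FPKM to 3.16 and 3.25. Of the receptors, Ddr1 rose (1.14 ± 0.18 (adjusted p = 5.29e-04)), while the integrin chains Itga2 (-1.96 ± 0.16 (adjusted p = 7.01e-06)) and Itga1 (-1.89 ± 0.19 (adjusted p = 2.70e-05)) and Adgrg6, an adhesion receptor of Schwann cells that binds type IV collagen (-0.41 ± 0.13 (adjusted p = 0.0234)), fell. In whole nerve 2 of 13 assembly genes rose and 5 fell, and 3 of 11 receptors rose and 4 fell. Over all genes 23.1% were higher and 22.5% lower.

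The genes outside the family whose log2(FPKM + 1) was most like that of Col3a1 over the 16 libraries were Spry1, Dzip1, Ackr3, Fndc1 and Ror1, with a Pearson r of 0.985, 0.982, 0.98, 0.979 and 0.978. Ackr3, for example, had a mean of 38.1 FPKM in uncrushed Schwann cells and 3.37, 3.83 and 6.41 on days 3, 5 and 7, and between 72.2 and 115 FPKM in the groups of whole nerve. The libraries share tissue and day, so these values are descriptions and carry no p.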

How the data were processed

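RNA of 8 Schwann cell and 8 whole nerve samples was amplified (Ovation) and sequenced. Reads were aligned by the authors to Rnor_6.0 with STAR, and the deposited expected counts, which are not normalized, were estimated from them with RSEM. The deposited TPM was computed by the authors with RSEM and sums to the same total in each library, and the deposited FPKM was computed by the authors with RSEM per effective length and library size. A deposited table of selected genes holds the FPKM the authors made with Cufflinks after TopHat2. The role of the STAR version in the processing notes is not clear and no version is given here. The number of unused columns of per-sample values was 0. No genome of Rnor_6.0 was used.

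Samples were grouped by title. Rounded expected counts went into edgeR 4.0.16 (R 4.3.3; quasi-likelihood F test, TMM, filterByExpr, Benjamini-Hochberg adjustment at 0.05) in fits of the 8 libraries of each tissue, 14961 and 15831 genes, and of all 16 libraries, 16829 genes, for tissue and interaction. Standard errors were obtained as the absolute log2 fold change over the root of F. A group with 3 counts or fewer per library was taken as at the floor, which covers counting error only, and depth is the sum of expected counts. The script was tested on simulated data with 200 changed genes. Alternatives were DESeq2 1.42.0 (the tool of the study), RLE and upper quartile scaling, no filter, the fit of all libraries, a replicate block, each library left out, and Col1a2 with its other record. Total count scaling and the sum of 5 members with their other records were chosen after seeing the data.

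The members and the lists of markers and pathway genes were chosen with earlier results of these data known. Values in every library are given for the member of highest level in its class in either tissue, for the 5 called members of largest change in each comparison of a day with uncrushed, and for members called in opposite directions in the tissues. Other members are given by their range. Of each pathway list the 2 largest rises and falls at day 3 in Schwann cells are named, and the 5 genes most like Col3a1. Col20a1, Col12a1 and the other members described for a single call, and Dpt, Mfap5, Pdgfrb and the receptor Adgrg6, were named outside these rules after their values were seen. Promoter windows are those of RefSeq, GRCr8, found for 35 of 44 members, and no coordinate of another build is given. Col21a1 was not analysed here. Figures were drawn with matplotlib.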

Additional observations from a re-analysis of the deposited data

Results flagged for a closer look

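For 28 collagen genes, the record named Col1a2 among them, the change after crush differed between tissues at least at 1 of the 3 days. The test was the interaction of edgeR in the fit of all 16 libraries. Each day alone called 20, 20 and 21 of 40 (26%, 27.5% and 26% of all genes). The share of all genes called on at least 1 day was not computed, so the 28 has no background. Each value below is the log2 fold change in Schwann cells minus that in whole nerve, at the day where its size was largest among the days called.

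At day 3 the value was -4.94 for Col19a1, -4.46 for Col3a1, -4.19 for Col26a1, -3.36 for Col15a1, -2.57 for Col17a1, -2.33 for Col14a1, 0.53 for Col9a3, 0.98 for Col20a1 and 2.95 for Col9a2, with adjusted p from 1.21e-07 to 0.0268 over all genes. The value of Col19a1 rests on Schwann cell libraries at 0 and that of Col26a1 on at most 0.31 FPKM in Schwann cells. The value of Col15a1 is that of the record holding the smaller share of its fragments, and with both records it was -2.66 at day 3, -3.20 at day 5 and -2.27 at day 7 (adjusted p = 6.58e-07, 1.47e-07 and 3.43e-06). Without 1 library the calls of Col9a3, Col17a1, Col19a1 and Col20a1 were lost (highest adjusted p = 0.11, 0.112, 0.113 and 0.128).

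At day 5 the value was -5.68 for Col11a1, -3.13 for Col6a3, -2.98 for Col4a1, -2.89 for Col6a1, -2.53 for Col4a2, -1.38 for Col16a1, -1.34 for Col5a3, -1.09 for Col27a1, -1.02 for Col5a2 and -0.77 for Col5a1, with adjusted p from 3.44e-09 to 0.00105 over all genes. Col11a1 fell in Schwann cells and rose in whole nerve, and all the genes of this group had the lower value in Schwann cells.

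At day 7 the value was -13.64 for Col1a2, -5.10 for Col7a1, -3.05 for Col6a2, -2.62 for Col8a2, -2.19 for Col6a6, -1.68 for Col11a2, -1.58 for Col28a1, 1.59 for Col24a1 and 2.21 for Col2a1, with adjusted p from 1.23e-06 to 0.0385 over all genes. The value of Col1a2 is that of the record of that name alone, whose fragments are split, and with both records it was 0.42 (adjusted p = 0.111). Col7a1 was at 0 in uncrushed nerve, so that its fitted value is no bound. Without 1 library the calls of Col1a2, Col6a6, Col7a1 and Col24a1 were lost (highest adjusted p = 0.0542, 0.585, 0.184 and 0.0998).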

How the results depend on the processing

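Of 376 calls of collagen genes over the 15 comparisons, 365 were kept with DESeq2, 371 with upper quartile scaling, 375 with RLE size factors, 375 without the filter and 344 under total count scaling, and 161 of 177 in the fit of all 16 libraries. Under total count scaling 4 calls of whole nerve reversed: Col5a2 at day 3 (0.028), Col3a1 at day 5 (0.045), Col6a3 at day 5 (0.16) and Col9a3 at day 7 (0.023). With its other record, alone or with all members so summed, Col1a2 reversed at day 7 in whole nerve (-0.21 and -0.21), between tissues in uncrushed samples (-2.39 and -2.39) and at day 5 (-2.12 and -2.12), and in the interaction at day 7 (0.42 and 0.42). Counts moved past 1.5 times only in whole nerve at day 7 against day 3, 19 without the filter against 12; the cause was not tested. The summed level was lower in Schwann cells by 3.55-fold, 3.14-fold and 2.49-fold with the other records and by 3.57-fold, 3.22-fold and 2.75-fold as TMM-scaled CPM, against 4.45-fold, 3.81-fold and 3.23-fold. In whole nerve it was lower by 1.51-fold, 1.24-fold and 1.29-fold as TMM-scaled CPM, and in TPM by 1.24-fold at day 3.

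Leaving out each library gave 26 to 28, 25 to 27 and 21 to 25 calls on the 3 days in Schwann cells and 12 to 18 at day 7 against day 3, 20 to 26, 18 to 24, 18 to 26 and 8 to 14 in whole nerve, 33 to 36, 32 to 36, 33 to 35 and 31 to 33 between tissues from uncrushed to day 7, and 17 to 21, 17 to 19 and 16 to 22 for the interaction. The lowest count at day 7 against day 3 in Schwann cells, 12 against 18, was without day 3 replicate 2.

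Same-numbered libraries did not deviate together (correlations of -0.06 to 0.08). With 2 libraries a group this cannot show whether same-numbered libraries shared rats or a preparation. With the replicate block the calls were 27, 27, 25 and 18 in Schwann cells, 28, 25, 25 and 16 in whole nerve, 35, 35, 35 and 33 between tissues and 20, 19 and 21 for the interaction, and 375 of 376 calls were kept. With 2 libraries a group and members at a few counts, small changes of low genes may have been missed, and the size that could be detected was not tested.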

Other observations

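The table of Cufflinks FPKM, made with another aligner and another estimator, held 13 of the collagen genes in 8 Schwann cell columns and enters no comparison above. Its columns are named by day and not by library, so the order within a day carries no meaning. Col3a1 was 351 and 329 FPKM without crush, then 8.83 and 16.5 on day 3, 23.9 and 19.8 on day 5, and 60.1 and 39.9 on day 7. Col18a1 was 6.24 and 4.98 without crush and 35.9 and 34.1 on day 5. Col1a2 was 77.5 and 62.1 without crush, then 84.7 and 82.2 on day 3, 127 and 109 on day 5, and 123 and 125 on day 7, a course without the erratic split seen for its own record in the RSEM table. For all 13 genes and all 3 days the log2 ratio of mean FPKM to uncrushed was higher in the Cufflinks table than in the RSEM table (members with both records), by 0.33 to 1.05. Its sign differed for Col1a2 at day 3 (0.26 in the Cufflinks and -0.15 in the RSEM table), Col27a1 at day 5 (0.55 and -0.33), Col2a1 at day 7 (0.15 and -0.29) and Col5a1 at day 7 (0.24 and -0.59), of which the calls of Col27a1 at day 5 and Col5a1 at day 7 are given above as lower. The cause was not tested.

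Other members also lie beside each other in the RefSeq annotation of GRCr8. Col3a1 and Col5a2 are neighbours on chromosome 9, and they changed in Schwann cells at day 3 by -5.12 ± 0.30 and -0.75 ± 0.13. Col6a1 and Col6a2 are neighbours on chromosome 20 and changed by -2.25 ± 0.19 and -2.07 ± 0.23. The windows of Col4a3 and Col4a4 overlap by 88 bases on opposite strands, and the records of these names were listed at 0 in all 8 Schwann cell libraries, where Col4a3 with its other record ranged up to 0.10 FPKM.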
